A study of Arabidopsis thaliana with 3 samples.

Results

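The nuclear genes for the 18S and 5.8S ribosomal RNAs of Arabidopsis thaliana were described with their spacers and flanks in 2 antibody pull-downs. The pull-downs were of N6-methyladenine (6mA), adenine with a methyl group on its N6 nitrogen. The genes were AT2G01010 (18S) and AT2G01020 (5.8S) on chromosome 2, and AT3G41768 (18S) and AT3G41979 (5.8S) on chromosome 3. Members were the summits, the positions of highest fragment coverage within called peaks, that lay in the first 20 kb of chromosome 2 or in a 50 kb window of chromosome 3. This took 42 of the 673 summits of both lists, in 24 of 295 peaks. Replicate 1 gave 38 of its 297 summits, 11 on chromosome 2 and 27 on chromosome 3. Replicate 2 gave 4 of its 376, 1 on chromosome 2 and 3 on chromosome 3. The members were chosen by position among summits that the authors' caller had passed on the q-value of their coverage over input. Folds and calls therefore describe them and were not tested.

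All 3 samples, 1 input and 2 immunoprecipitated replicates, came from whole seedlings of the Columbia-0 ecotype, 9 days old and raised in a 16 h photoperiod, with no treatment and no other genotype. Sheared DNA of about 300 bp was pulled down with an antibody against N6-methyladenosine of RNA and DNA, and the input skipped this step. Whether the replicates were separate cultures is not stated, so their spread may be technical. Replicate 1 held 28141317 fragments after removal of duplicates, 28.3 times the 995366 of replicate 2, and both were called against the same input of 61231606. Mean coverage was 42.3 fragments in replicate 1 and 1.77 in replicate 2. No p-value between replicates or copies was possible with 1 library per replicate.

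The 45S rRNA genes are tandem units transcribed by RNA polymerase I in the nucleolus. In each unit the 18S gene comes first, then an internal transcribed spacer, the 5.8S gene, another internal spacer and the 25S gene. External and intergenic spacers, which hold the promoter, lie between units. The 18S rRNA is the core of the small ribosomal subunit, and the 5.8S and 25S rRNAs belong to the large one. Arabidopsis carries many such units, of which the assembly shows only few, so reads from many units can pile up on few positions. How the authors placed reads that fit both copies is not given in the sources used here. In bulk DNA, more modified units and more modification per unit cannot be told apart.

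The gene table gave the chromosome 2 and chromosome 3 copies the same layout, with an 18S gene of 1808 bp, a spacer of 268 bp and a 5.8S gene of 164 bp. Positions in the copies were therefore set to the start of their 18S genes. Aligned positions are those at equal distance from that start. The sequences were not aligned, so away from the shared genes such positions may not correspond. A further pair of related genes, MIR5642b (AT2G03855) on chromosome 2 and MIR5642a (AT3G06345) on chromosome 3, then lay 901 and 903 bp before the 18S gene, 2 bp apart. The 25S gene has no entry in the table, so the DNA after the 5.8S gene, where the second internal spacer and the 25S gene follow, was described by distance. Summits are TAIR10 positions, and distances to genes rest on the TAIR10.1 table having the same nuclear positions.

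Before the 18S gene of the chromosome 2 copy, replicate 1 had 4 summits with folds of 1.24 to 1.51. The highest fold of this copy lay farthest upstream, at 1415 (fold 1.51, pileup 13683 fragments), inside AT2G01008, a gene annotated as protein-coding. Next came 2405 (fold 1.24) and 2727 (fold 1.39), also inside AT2G01008. The last, at 3524, 182 bp before the 18S gene, had fold 1.38 and the highest pileup of the copy, 19139 fragments. Fold and pileup thus ranked the upstream summits differently.

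Within the 18S gene AT2G01010 replicate 1 had 2 summits, at 4551 (fold 1.13) and 5357 (fold 1.24), where the implied input was 254 and 253 times as deep as the mean coverage. The peaks covered 58.4% of this gene, 16.4% of the spacer between the 18S and 5.8S genes and 100% of the 5.8S gene AT2G01020. No summit lay inside the 5.8S gene or that spacer. The 5.8S gene was covered by the flank of a peak from 5738 to 6945 with 3 summits, at 5980, 35 bp after the gene (fold 1.18), at 6403 (fold 1.12, the lowest of the copy) and at 6714 (fold 1.23), 42 bp from AT2G01021. Farther on, a summit lay at 7296 (fold 1.31) in AT2G03865, an RNA gene of no stated class. From 7406 to 9850 replicate 1 had no peak on chromosome 2. The last summit of the copy, at 10046 (fold 1.46), lay in another such gene, AT2G00340. The highest folds of the chromosome 2 copy were therefore at its 2 ends, and the lowest lay past the 5.8S gene and in the 18S gene.

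**Figure D1:**
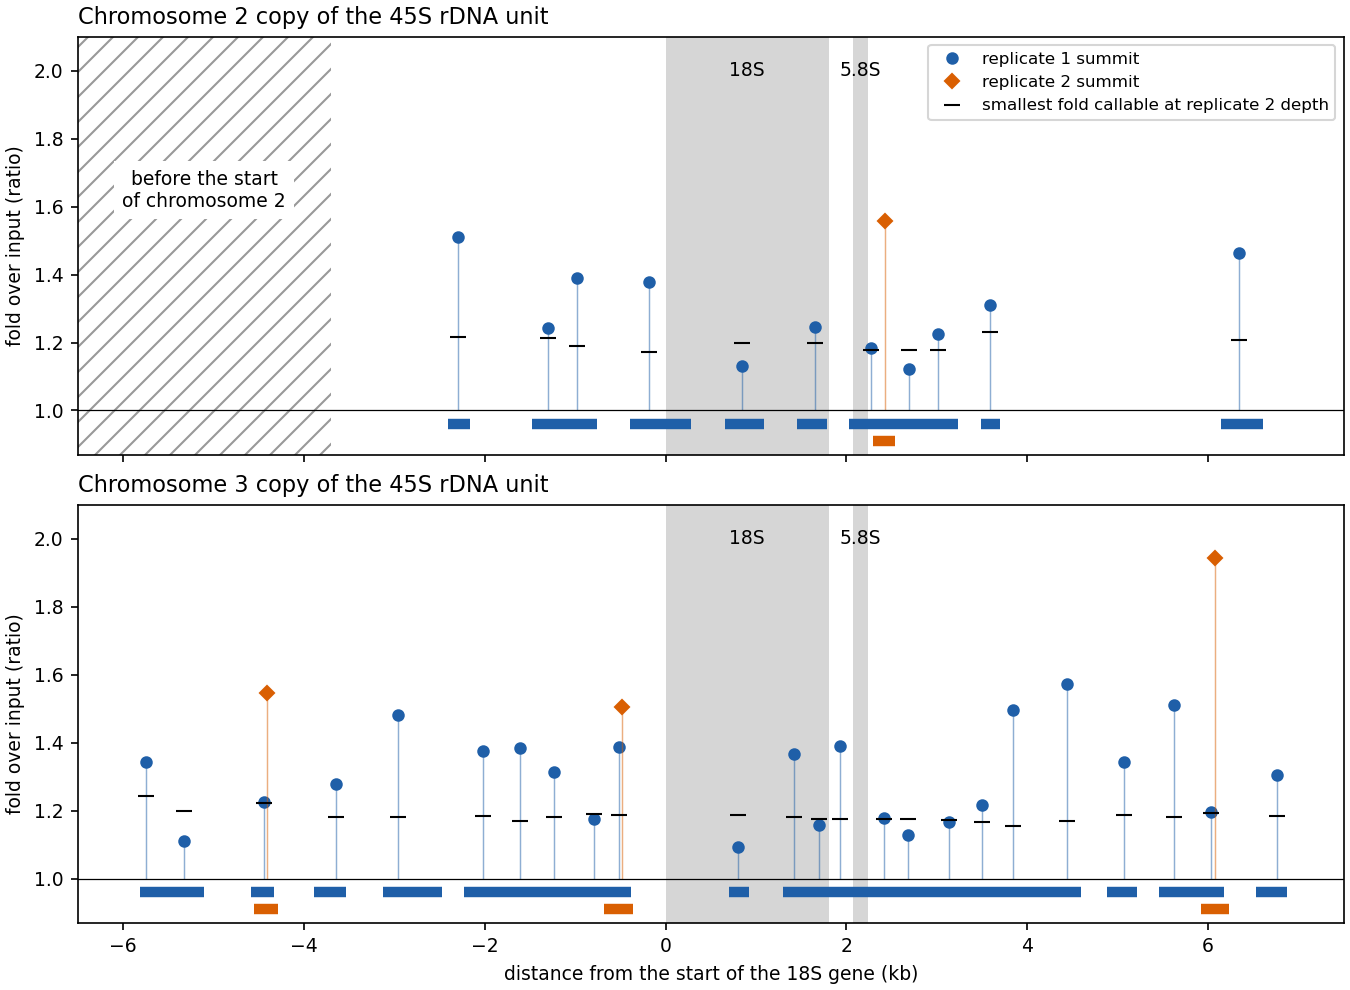
Fold over input (linear ratio) at each summit against distance from the start of the 18S gene in kb, for the chromosome 2 copy (top) and the chromosome 3 copy (bottom). Circles are replicate 1, diamonds replicate 2, bars at the bottom the peaks, grey bands the 18S and 5.8S genes, and black dashes the smallest fold that the depth of replicate 2 could have called at each replicate 1 summit. Replicate 1 folds lie between 1.09 and 1.57, the 4 replicate 2 folds lie between 1.50 and 1.94, and 3 chromosome 3 summits beyond the axis are not drawn.

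Before the 18S gene of the chromosome 3 copy, replicate 1 had 10 summits with folds of 1.11 to 1.48 (median 1.33), and they reached farther upstream than the sequence available on chromosome 2. The outermost, at 14191934 (fold 1.34), lay in AT3G00650, and 14193237 (fold 1.23) in AT3G00660, both RNA genes of no stated class. The highest of the 10, at 14194722, had fold 1.48 and a pileup of 19107 fragments, 725 bp before the gene AT3G41762, annotated as protein-coding. A peak of 1851 bp followed with 5 summits. Of these, 14195662 (fold 1.38), 14196067 (fold 1.38) and 14196447 (fold 1.31) lay in AT3G41762, with the second also in the noncoding RNA gene AT3G41761. The summit at 14196890 (fold 1.17) lay in MIR5642a, and the one at 14197158 (fold 1.39) lay 11 bp past that gene.

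Within the 18S gene AT3G41768 replicate 1 had 3 summits. That at 14198476 had the lowest fold of all members, 1.09 (pileup 12774 fragments). Those at 14199099 (fold 1.37) and 14199372 (fold 1.16) lay in the last part of the gene. Peaks covered 40.5% of this gene, against 58.4% in the chromosome 2 copy. The spacer to the 5.8S gene and the 5.8S gene AT3G41979 itself were both covered at 100%, and the spacer held a summit at 14199602 (fold 1.39), inside the long noncoding RNA gene AT3G06355. As on chromosome 2, the 5.8S gene held no summit of its own.

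The widest replicate 1 peak of the rDNA, 3299 bp from 14198974 to 14202272, ran from the 18S gene through the 5.8S gene and beyond, with 9 summits. Its folds varied along the unit. After the 5.8S gene they were 1.18 at 14200091, 1.13 at 14200359, 1.17 at 14200815 and 1.22 at 14201173. They then reached 1.50 at 14201524 and 1.57 at 14202120, the highest fold of the members in replicate 1, at 1608 and 2204 bp past the 5.8S gene. The pileup was highest at the first of this pair, with 26338 fragments against 22808. Next, 14202747 had fold 1.34 and 14203301 fold 1.51, then 14203708 fold 1.20 and 14204442 fold 1.31. From 14200359 to 14203708 these summits lay in AT3G06365, an RNA gene of 3994 bp with no stated class, and the last lay 234 bp past it. The high folds past the 5.8S gene thus lay where chromosome 2, at equal distance from its own 18S gene, held no peak.

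**Figure D2:**
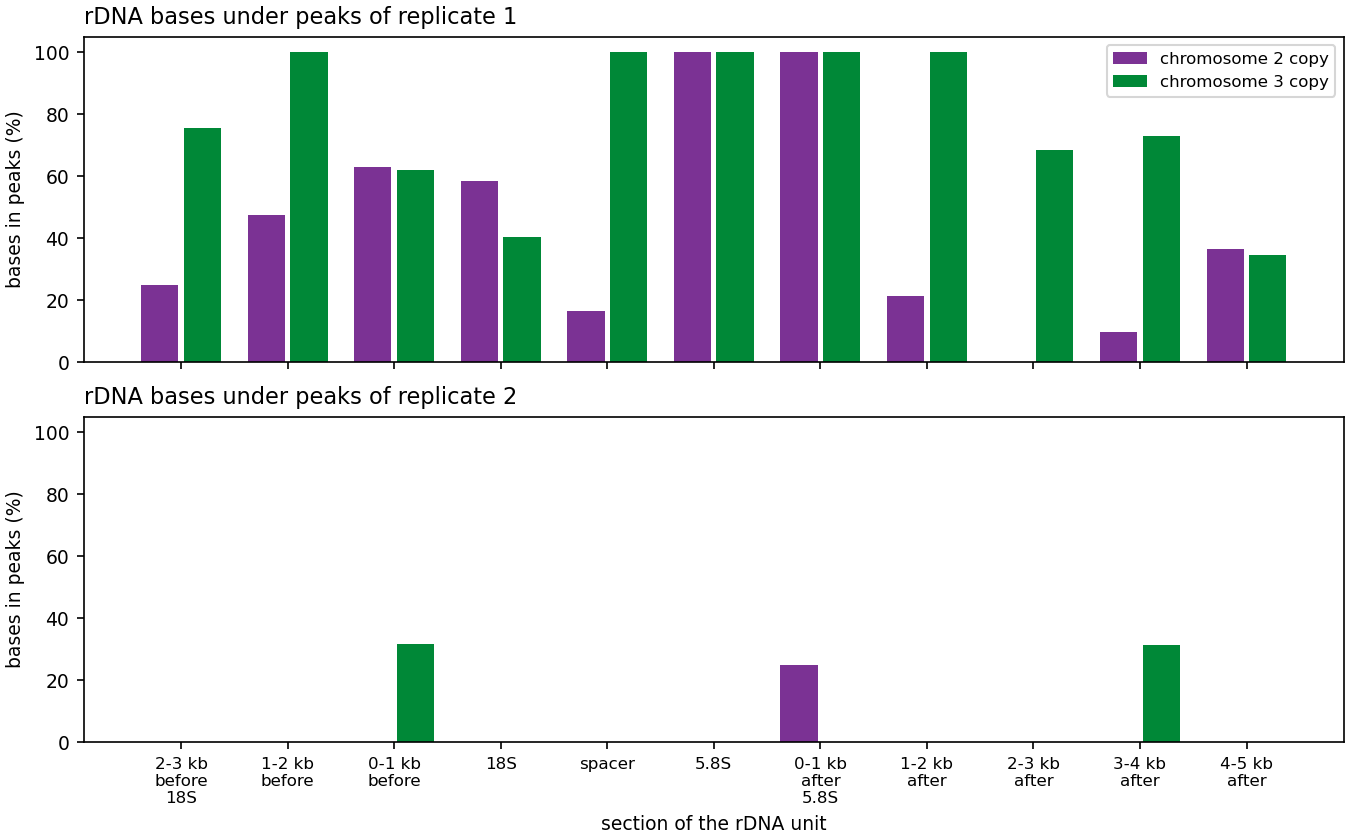
Percent of bases under peaks in each section of the rDNA unit, for the chromosome 2 copy (purple) and the chromosome 3 copy (green), with replicate 1 above and replicate 2 below. In replicate 1 the chromosome 3 copy is covered at 68.4% from 2 to 3 kb past the 5.8S gene, where the chromosome 2 copy is at 0%, while both 5.8S genes are at 100%.

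Set side by side, the copies differed in the spacer between the rRNA genes, at 16.4% and 100%, and on either side of these genes. In replicate 1, peaks covered 45.2% of the 3 kb before the 18S gene on chromosome 2 and 79.2% on chromosome 3. Over the 4 kb past the 5.8S gene the shares were 32.7% and 85.3%. By 1 kb windows past the 5.8S gene, both copies were at 100% in the first. The second was at 21.2% on chromosome 2 and 100% on chromosome 3, the third at 0% and 68.4%, and the fourth at 9.6% and 72.9%. Of 10706 aligned positions, 2885 bp lay under peaks of both copies, which was 67.2% of the peak bases of chromosome 2 and 38.0% of those of chromosome 3. Over all these positions, chromosome 3 peaks covered 70.9% and chromosome 2 peaks 40.1%. The shared parts were thus no larger than the coverage of the other copy. Another 4710 bp were under a chromosome 3 peak alone and 1406 bp under a chromosome 2 peak alone.

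Few summits matched between the copies. Within 50 bp, 3 of the 27 summits of the chromosome 3 copy had a counterpart among the 11 of chromosome 2. How many would match by position alone was not worked out, so the count is no sign of shared summits. All 3 lay in the 18S gene or shortly after the 5.8S gene. In the 18S gene, 14198476 matched 4551 at folds of 1.09 and 1.13, and 14199372 matched 5357 at 1.16 and 1.24. Past the 5.8S gene, 14200359 matched 6403 at 1.13 and 1.12, 15 bp apart. On chromosome 3 these were 3 of the 4 lowest folds, and on chromosome 2 they were the 2 lowest and the one ranked 6 of 11. The ratio of chromosome 3 to chromosome 2 had a median of 0.967 (SD 0.0379, n = 3 pairs). With a limit of 25 bp only the last pair counted, and with 100 bp there were 5, so the number of matched summits rests on the limit. None of the 3 highest folds of chromosome 3 (14202120, 14203301 and 14201524) had a chromosome 2 summit within 100 bp.

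The input behind these folds was deep. The caller's fold is the pileup plus 1 over the local input background plus 1, which gives the background at each summit. Recomputing the caller's −log10 p-value from it differed by at most 0.00508 over the 26 member summits where it was under 200. Within the rDNA units, 35 summits of replicate 1 stood on 170 to 416 times the mean coverage. These are the members other than 3 distant summits of chromosome 3, as the ends of a unit were not mapped. The chromosome 3 copy had a median of 298 times (SD 49.1, n = 24 summits) and the chromosome 2 copy 254 times (SD 48.4, n = 11 summits). At the matched pairs in the 18S gene the chromosome 3 background was 1.09 and 1.28 times that of chromosome 2, and past the 5.8S gene 1.02 times. Background was lowest on chromosome 2 at 7296 (187 times), just before the stretch with no peak, and highest on chromosome 3 at 14201524 (416 times), where the aligned chromosome 2 stretch begins to lack peaks. The implied input at summits thus had a higher median on chromosome 3, but the ranges overlapped, at 187 to 328 times on chromosome 2 and 170 to 416 on chromosome 3. This input is known only at called summits, and its part in the difference in peaks was not tested.

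**Figure D3:**
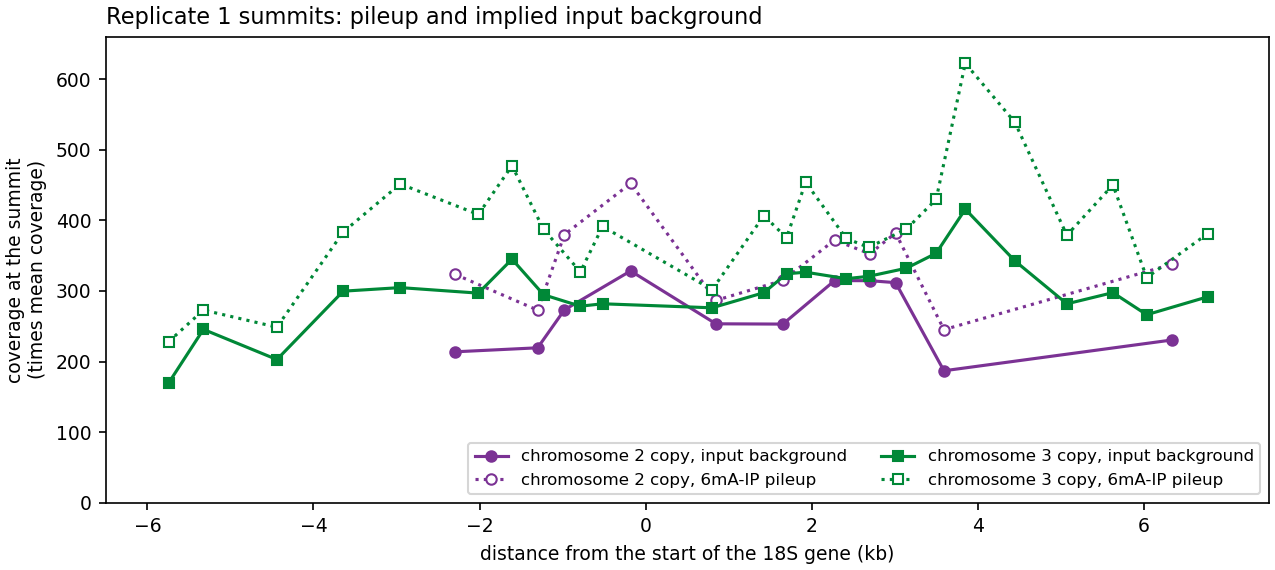
Coverage at each replicate 1 summit, in multiples of the mean coverage, against distance from the start of the 18S gene in kb. Filled symbols with solid lines are the implied input background, open symbols with dotted lines the 6mA pull-down, purple the chromosome 2 copy and green the chromosome 3 copy. Both the highest background, 416 times, and the highest pull-down coverage stand at 14201524 on chromosome 3.

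Across the summits of the units, fold did not follow the background in a single direction. Spearman's rho between fold and background was -0.44 over the 11 summits of chromosome 2 and 0.31 over the 24 of the chromosome 3 unit. The points share libraries and neighbouring summits share fragments, so these values are descriptions.

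The chromosome 3 window also took in 3 replicate 1 summits that did not have this depth. They lay at 14212501 (fold 1.39, pileup 784 fragments), 14212756 (fold 1.21, 1034 fragments) and 14216174 (fold 1.23, 428 fragments), between 12585 and 16258 bp past the 5.8S gene, the nearest gene being AT3G00670. Their background was 8.25 to 20.2 times the mean coverage. By that measure they stood apart from the other 35, which are called unit summits here. Depth alone does not place a summit in an rRNA unit, since 20 other nuclear replicate 1 summits stood in the range of those 35. The ends of the unit were not mapped, so the label of rRNA genes and spacers is by position. The next summits outside the windows were far off, in replicate 1 at 3356850 on chromosome 2 (fold 1.32, background 17.1 times) and at 13709884 on chromosome 3 (fold 1.13, background 30.3 times). The outermost members were 10046 on chromosome 2 and 14191934 and 14216174 on chromosome 3.

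Replicate 2 marked 4 rDNA positions, and none of its peaks covered an 18S or 5.8S gene, while replicate 1 peaks touched all 4 genes. On chromosome 2 its summit at 6134 had fold 1.56 and a pileup of 849 fragments, 189 bp past AT2G01020. On chromosome 3 it had 14193267 in AT3G00660 (fold 1.55, 542 fragments), 14197199, 52 bp past MIR5642a (fold 1.50, 740 fragments), and 14203754 in AT3G06365 (fold 1.94, 825 fragments). The first of these lies far upstream of the 18S gene, the second 478 bp before it and the third 3838 bp past the 5.8S gene. All 4 were single-summit peaks of 248 to 315 bp.

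Each of these 3 chromosome 3 summits had a replicate 1 summit within 50 bp, as did 19.2% of all nuclear replicate 2 summits. On a background of 170 to 416 times the mean coverage, 19 of 20 other nuclear replicate 2 summits did. The folds in replicates 1 and 2 were 1.23 and 1.55 at 14193237 and 14193267, with pileups of 10524 and 542 fragments. They were 1.39 and 1.50 at 14197158 and 14197199, with pileups of 16561 and 740. At 14203708 and 14203754 they were 1.20 and 1.94, with pileups of 13496 and 825. Replicate 2 was higher at 3 of 3, with a median ratio of 1.26 (SD 0.275, range 1.08 to 1.62). Pairs exist only where replicate 2 was called, which limits this direction. At 14193237 and 14203708 the smallest fold that its depth could have called was 1.22 and 1.19. The replicate 1 folds there were 1.23 and 1.20, so a called replicate 2 fold could hardly be lower. At 14197158 the smallest callable fold was 1.19 against 1.39, so a lower replicate 2 fold could have been called. The ranking differed between replicates, since the highest rDNA fold of replicate 2 stood where the replicate 1 fold ranked 20 of 27 on chromosome 3, and no replicate 2 peak lay at the replicate 1 maximum at 14202120. The replicate 2 summit was 30, 41 and 46 bp further along the chromosome at these pairs, while at the 64 other nuclear pairs the shift ranged from -46 to 38 bp with a median of -0.5. Fragments were longer in replicate 2, 240 against 203 bp, and the part of this in the shift was not tested.

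The chromosome 2 summit of replicate 2 had no replicate 1 summit within 50 bp in its own copy, where the nearest was 5980, 154 bp away. It did lie under the replicate 1 peak from 5738 to 6945. Set to the 18S gene, it was 14 bp from the replicate 1 summit 14200091 of the chromosome 3 copy, which had fold 1.18. The replicate 2 list had no peak at that chromosome 3 position. The stretch just past the 5.8S gene was thus called in replicate 2 on chromosome 2 alone, and in replicate 1 in both copies.

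Depth was then set beside the missing replicate 2 peaks. Taking the lowest −log10 p-value of the replicate 2 list as the cutoff, and the background of replicate 1 rescaled to its mean coverage, the smallest fold that replicate 2 could have called within the units was 1.15 to 1.24 (median 1.18). Of the 35 replicate 1 summits there, 27 had folds at or above it, and 24 of these 27 lay under no replicate 2 peak. Counting error blurs this line. At the fold of replicate 1, the pileup expected in replicate 2 was more than 2 counting SDs above the smallest callable pileup at 16 summits, within 2 SDs of it at 18, and further below at 1, 14198476 in the 18S gene. Of the 16, 15 lay under no replicate 2 peak, and their folds in replicate 1 were between 1.31 and 1.57. They include 14202120, where the smallest callable fold was 1.17 against 1.57 in replicate 1, and 14201524, where it was 1.15 against 1.50. For the 18 near the line, the depth does not show whether replicate 2 differed. The estimate leaves out the peak length the caller asks for, and the part of depth in the missing peaks was not tested. At the 3 shallow summits past the chromosome 3 unit the smallest callable fold was 1.74 to 2.18, above their folds in replicate 1. A fold as low as that of replicate 1 could thus not have been called there at this depth.

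The rDNA stood apart from the other nuclear summits in how the replicates related. Of all nuclear replicate 1 peaks, 70.3% overlapped a replicate 2 peak by at least 1 bp, and of the rDNA peaks 4 of 20 (20%) did, against 48 of 54 elsewhere. By summits, 55.8% of all nuclear replicate 1 summits had a replicate 2 summit within 50 bp, and 3 of 38 rDNA summits did (7.89%), against 64 of 82 elsewhere (78.0%). In the other direction the background was 19.4% of nuclear replicate 2 peaks, and 4 of 4 rDNA peaks overlapped. Replicate 1 peaks covered 40.1% of the positions compared between the copies on chromosome 2 and 70.9% on chromosome 3. An overlap of 1 bp therefore says little there. By summits, 3 of 4 rDNA summits were paired, against 64 of 345 elsewhere. Those 345 stood on a median background of 21.6 times the mean coverage, and the 4 rDNA summits on 259 times. Of 20 other nuclear replicate 2 summits on 170 to 416 times, 19 were paired (95%). The rDNA share was thus not higher than elsewhere at like depth of input. Folds of replicate 2 over replicate 1 had a median ratio of 1.26 at the 3 rDNA pairs and 12.5 at the 64 others (range 2.08 to 16.5). These ranges did not overlap, but the pairs share an input and lie in few loci, so no test was made.

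**Figure D4:**
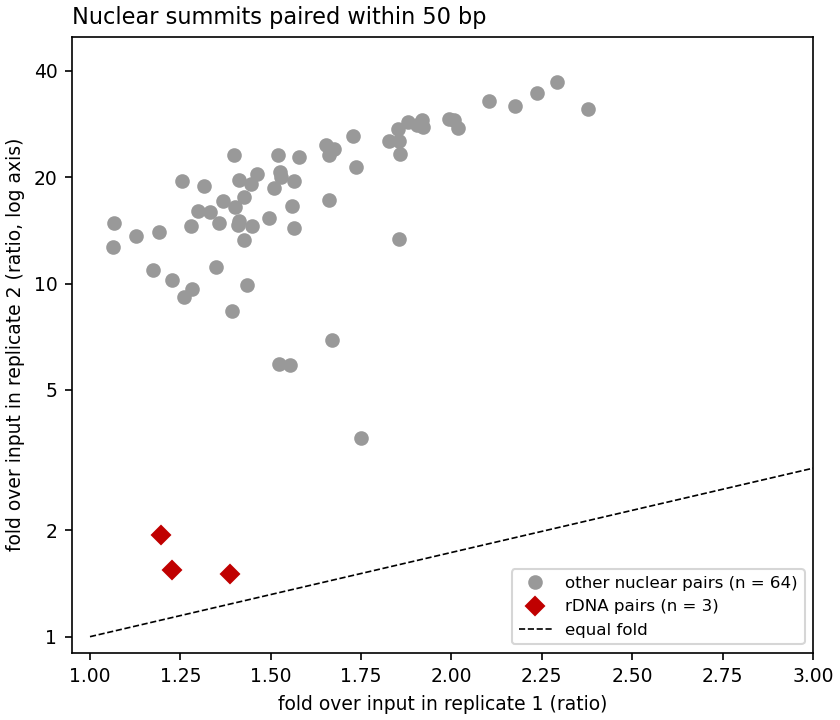
Fold over input in replicate 2 (log axis) against replicate 1 (linear axis) at nuclear summits paired within 50 bp, with rDNA pairs as red diamonds and the others as grey circles. The 3 rDNA pairs lie near the dashed line of equal fold, at ratios of 1.08 to 1.62, and the 64 others at 2.08 to 16.5.

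Other nuclear summits on equally deep input had other values. Over the same range of background, 170 to 416 times the mean coverage, replicate 1 had 20 other nuclear summits with a median fold of 1.79 (range 1.19 to 2.29), and 19 of them had a replicate 2 summit within 50 bp (95%). In replicate 2, 20 other nuclear summits in that range had a median fold of 23.2 (range 3.64 to 37.3), whereas the 4 rDNA folds were 1.50 to 1.94. In replicate 1 the 38 rDNA folds had a median of 1.29 (SD 0.130) and the 82 other nuclear summits a median of 1.45 (SD 0.304), and these distributions overlapped. This range of background was chosen after the values were seen.

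**Figure D5:**
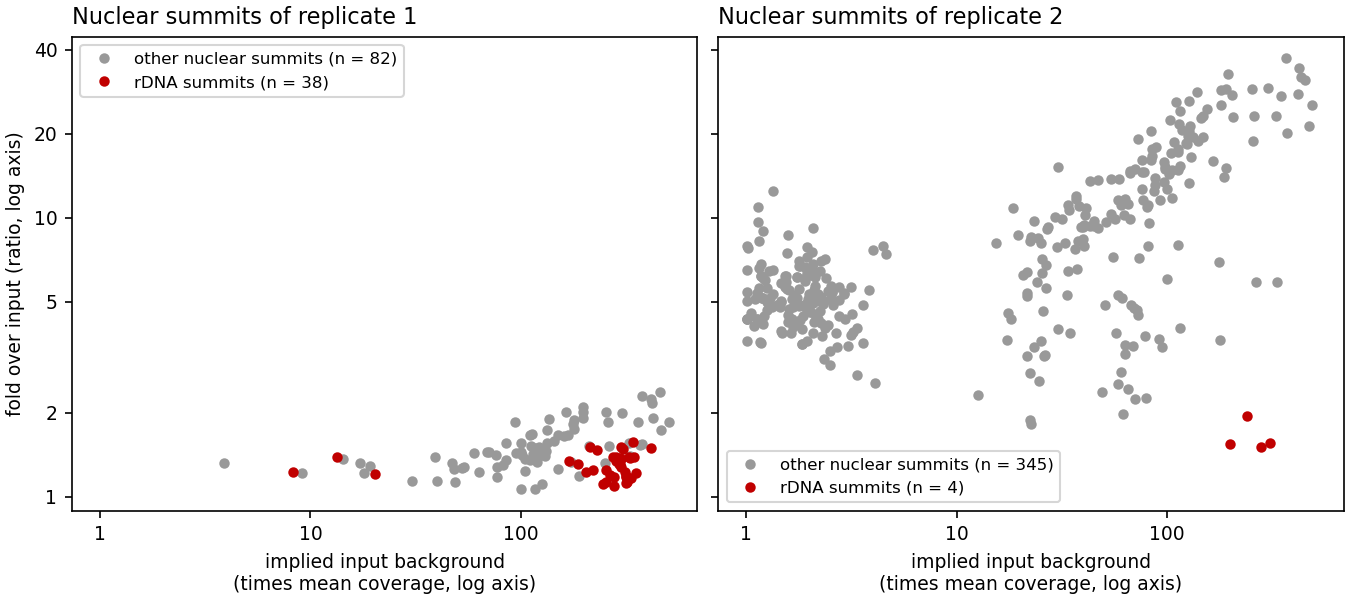
Fold over input (log axis) against implied input background in multiples of the mean coverage (log axis) for nuclear summits of replicate 1 (left) and replicate 2 (right), with rDNA summits in red. In replicate 1 the rDNA folds of 1.09 to 1.57 lie among the others, and in replicate 2 the 4 rDNA folds of 1.50 to 1.94 lie below every other summit of similar background, which start at 3.64.

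The median length of the peaks and the most summits in a peak also differed, in opposite directions in the 2 replicates. In replicate 1 the rDNA had 20 peaks with a median length of 446 bp (range 212 to 3299), 7 of them with several summits and up to 9 in a peak. The other 54 nuclear peaks had a median of 360.5 bp (range 206 to 1362), 17 of them with several summits and up to 5 in a peak. The shares of peaks with several summits were thus close. Neighbouring summits within an rDNA peak were a median of 369 bp apart (range 230 to 596, n = 18 gaps) against 291 bp elsewhere (range 136 to 418, n = 28 gaps). In replicate 2 the order was reversed. Its 4 rDNA peaks had a median length of 291.5 bp and 1 summit each. The 135 other nuclear peaks of replicate 2 had a median of 630 bp (range 240 to 7977) and up to 16 summits. The rDNA peaks made up 35.8% of the nuclear peak bases of replicate 1, 13831 bp, and 0.731% of those of replicate 2, 1146 bp.

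A list of genes whose products act on the rRNA genes was also looked up. It held 11 genes, all found in the gene table, among them NRPA1 and NRPA2 for the largest subunits of RNA polymerase I, NUC1 and NUC2 for nucleolins, FIB1 and FIB2 for fibrillarins, HDA6, MET1 and DDM1, which act in rRNA gene silencing or DNA methylation, and FAS1 and FAS2 of chromatin assembly factor CAF-1. In both lists 0 of 11 had a summit inside or within 1 kb. Among all 37899 nuclear genes of the table, a summit was that near to 49 (0.129%), so 0 of 11 is no result about these genes. The nearest summit to any of them was 3012 kb away.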

How the data were processed

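The submitters' processing notes name Trim Galore and the build TAIR10. No aligner is given in the sources used here. Peaks and summits were called with MACS 2.2.6 on paired-end fragments of each pull-down against the shared input, not pooled, with an effective genome size of 135 Mb, a q cutoff of 0.05 and at most 1 fragment per position, per the file headers. The input was scaled down to each pull-down. The authors deposited, for each summit, a coverage signal (the pileup of fragments), a fold (linear ratio to local input), and q-value and p-value on a −log10 scale.

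From these lists, Python 3.11.15, pandas 2.3.3 and scipy 1.17.1 were used. Mean coverage was fragments kept times fragment length over genome size. Background was taken with a pseudocount of 1. Summits were paired as mutual nearest neighbours within 50 bp, and peaks overlapped from 1 bp. The pairing, background and depth-limit steps were tested on simulated data. The gene table was RefSeq's for TAIR10.1, used for names and distances, without strand. Named summits were all of replicate 2 and, per chromosome, the 5 highest folds and the lowest of replicate 1. The others named were chosen after their values were seen. Members, gene lists and alternatives were chosen with earlier results of these data known. Reads and the input's own coverage were not used here.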

Additional observations from a re-analysis of the deposited data

How the results depend on the processing

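Across 10 results and 36 alternatives, 29 values stayed within 1.5 times the count or within 1 SD over summits or pairs of the median, and 7 moved. With 1 summit per peak the members of replicate 1 numbered 20 in place of 38. Within 3 kb of an 18S or 5.8S gene, replicate 2 kept 2 of its 4 summits. With a reciprocal overlap of at least 50%, 1 of the 20 rDNA peaks of replicate 1 overlapped a replicate 2 peak in place of 4. Counterparts between the copies numbered 1 within 25 bp and 5 within 100 bp, in place of 3, and the fold ratio of chromosome 3 to chromosome 2 was 1.01 within 25 bp. Taking 1 summit per peak or a limit of 3 kb itself removes summits. The reciprocal overlap and the limits of 25 and 100 bp keep the summits and change what counts as a match. Without replicate 1 or replicate 2 in turn, the members of both lists ranged from 4 to 38, so nearly all rest on replicate 1. A limit of 25 bp left no pair between replicates and gave no fold ratio. Setting the copies to the 5.8S gene gave the same 3 counterparts. No paired analysis was possible because the replicate numbers occur in a single group and no test was made. Leaving out the 3 shallow chromosome 3 summits, an alternative added after seeing the data, gave a replicate 1 median fold of 1.31 against 1.29. At the depth of replicate 2, 18 of the 35 unit summits lay within 2 counting SDs of the smallest callable pileup at the folds of replicate 1.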
